A study of Mus musculus with 6 samples.

Results

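Osteoclasts are the multinucleated cells of the myeloid lineage that dissolve bone and calcified cartilage. Precursors receive CSF1 and RANKL, switch on the transcription factor NFATc1, fuse with each other, and then pump acid and proteases onto the mineral surface. The 10 genes described here follow that course. *Nfatc1* and *Oscar* belong to signalling, *Dcstamp* and *Ocstamp* to fusion, *Calcr* to the calcitonin response, and *Acp5*, *Ctsk*, *Tcirg1*, *Atp6v0d2* and *Clcn7* to resorption. They were picked by name from the 17854 genes of the table, and all 10 were present in it.

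The libraries came from Tomato+ cells, which carry tdTomato, a red fluorescent protein made permanently from the *R26* locus once Cre, driven by the limb mesenchyme gene *Prrx1*, has been active in the cell or an ancestor. The MSC-derived group holds 3 libraries of Tomato+ cells sorted from the repaired articular cartilage of male *C57BL/6* mice with surgically induced knee osteoarthritis, after sorted *Prrx1*-lineage mesenchymal stromal cells from inguinal white fat (iWAT MSCs) of *Prrx1-Cre; R26tdTomato* donors had been injected into the joint. The endogenous group holds 3 libraries of articular Tomato+ cells of age- and sex-matched *Prrx1-Cre; R26tdTomato* mice on the same background, with 3 mice per group. The groups therefore differ in host genotype, joint disease and injection as well as in the origin of the cells, and these cannot be told apart.

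The libraries held 22060628 to 24881796 expected counts, so that 3 counts, taken as the smallest level that can be shown, correspond to 0.121 to 0.136 CPM (counts scaled to a library of 1000000; this covers counting error only). The cells were labelled chondrocytes, but all 9 chondrocyte markers tested were lower in the MSC-derived libraries, where *Col2a1* still had 10604 to 11147 counts against 791142 to 837609. All 12 macrophage markers were higher there, and none was at 0 counts in every endogenous library. All 8 osteoblast and osteocyte markers were higher in the endogenous libraries, with a summed level of 75210 to 81850 CPM against 1672 to 1728 CPM. Counts of the leukocyte gene *Ptprc* were 8136 to 8926 in MSC-derived and 340 to 604 in endogenous libraries. Endogenous replicate 1 stood apart, with 3459 genes at 0 counts against 1338 and 1395 in the other two, and each result that changed without it is given with its value. In bulk RNA, fewer cells of a type and less RNA per cell cannot be told apart.

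Of the 10 osteoclast genes, 7 passed the filter on low counts. In edgeR's quasi-likelihood test, with p adjusted over all 14289 genes tested and a threshold of 0.05, 4 of these 7 were higher in the MSC-derived cells and 1 was lower. Among all genes tested 31.3% were called higher, 30.3% lower and 61.6% in either direction, so that 5 called genes of 7 do not set the list apart. The same 5 genes had groups that did not overlap, as did 72.4% of all genes tested. *Tcirg1*, *Acp5*, *Atp6v0d2* and *Clcn7* rose, while *Ctsk*, the remaining resorption gene, was not called. *Nfatc1*, the master transcription factor, fell, and the fusion gene *Ocstamp* was not called. *Calcr*, *Dcstamp* and *Oscar* did not pass the filter. The median log2 fold change (log2FC, MSC-derived over endogenous, given below with its standard error, SE) of the 7 genes was 1.43, which is the value of the uncalled *Ocstamp*, against 0.05 over all genes tested. This median was 0.89 without MSC-derived replicate 1 and 0.87 without endogenous replicate 1, and 1.48 to 1.96 without each of the other libraries. Without endogenous replicate 1 adjusted p fell steeply even where the log2FC hardly moved. For *Nfatc1* it was 5.09e-20 against 2.43e-07 with all libraries (edgeR), at a log2FC of -2.59 and -2.51. The share of all genes called in that fit was not counted, so a call gained only there is not read as a difference. *Calcr*, *Nfatc1* and *Clcn7* overlap other annotated genes, and no source states that the counting used strand, so reads of those neighbours could be included. The macrophage, neutrophil and erythroid markers, and 7 of 8 B and T cell markers, were higher in the same libraries as the 4 higher genes. Their summed levels were 12390 to 12610 against 107 to 173 CPM for macrophages, 41800 to 43850 against 1888 to 2751 CPM for neutrophils, 829 to 851 against 210 to 240 CPM for erythroid cells and 355 to 359 against 13.9 to 18.2 CPM for B and T cells, and their part in these differences was not tested.

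**Figure D1:**
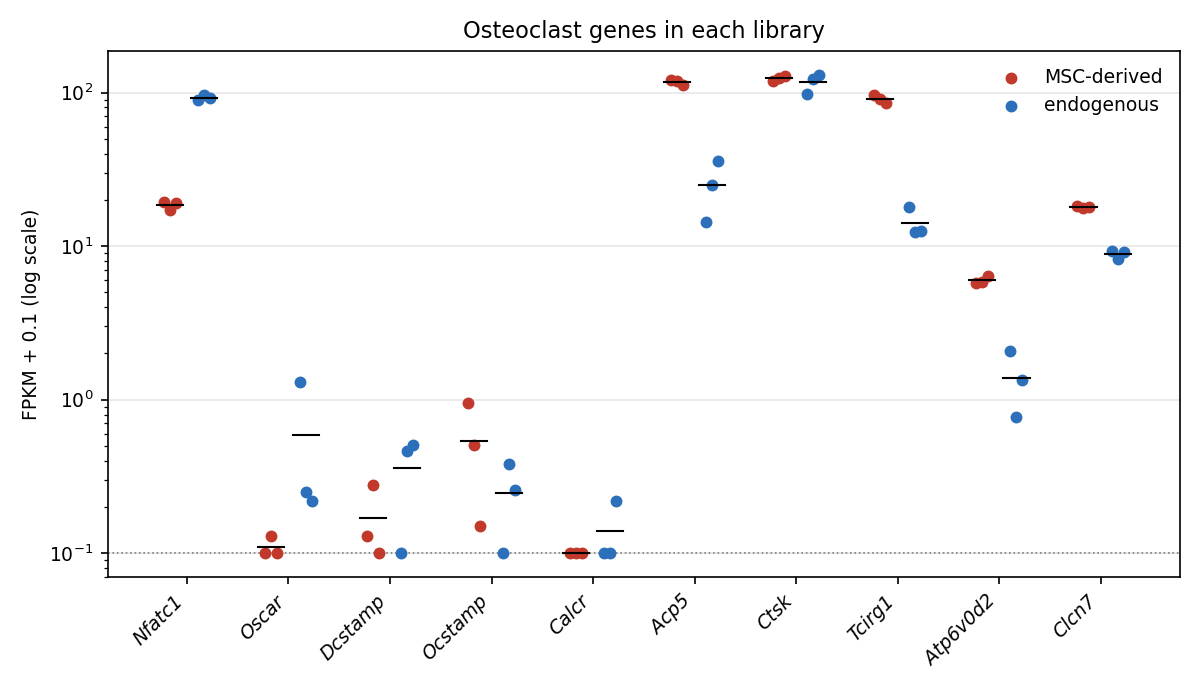
FPKM (fragments scaled by transcript length and library depth) plus 0.1, on a log scale, of each osteoclast gene in the 3 MSC-derived and the 3 endogenous libraries, with 1 point per library and a bar at the mean. *Nfatc1* is higher in every endogenous library, *Acp5*, *Tcirg1*, *Atp6v0d2* and *Clcn7* are higher in every MSC-derived library, *Ctsk* overlaps, and *Oscar*, *Dcstamp*, *Ocstamp* and *Calcr* lie near the bottom (0 FPKM, dotted line).

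Some promoters of these genes are shown because genes of the list moved together while others did not. RefSeq windows (GRCm38.p6) matched 6 of the 10 genes, with 12 windows in all. The 250 bases before the start of transcription are printed for *Acp5* and *Tcirg1*, which rose, and for *Ctsk*, which was not called. They are also printed for *Oscar*, which was at most 1.21 FPKM in any library. For *Acp5* and *Tcirg1*, with 3 windows each, the most downstream start is shown. Capitals mark, on either strand, the core letters bound by factors of osteoclasts, namely GGAAA for NFAT (TTTCC on the other strand), CACATG for MITF and its TFE relatives, and GAGGAA for ETS factors such as PU.1. The last of these can share its final letters with GGAAA.
*Acp5*, chr9:22130599-22130848, minus strand: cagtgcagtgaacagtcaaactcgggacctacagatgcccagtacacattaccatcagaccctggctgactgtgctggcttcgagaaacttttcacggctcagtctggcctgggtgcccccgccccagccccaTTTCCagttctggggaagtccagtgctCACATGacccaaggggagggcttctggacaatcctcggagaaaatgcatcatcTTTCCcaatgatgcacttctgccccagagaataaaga
*Tcirg1*, chr19:3905231-3905480, minus strand: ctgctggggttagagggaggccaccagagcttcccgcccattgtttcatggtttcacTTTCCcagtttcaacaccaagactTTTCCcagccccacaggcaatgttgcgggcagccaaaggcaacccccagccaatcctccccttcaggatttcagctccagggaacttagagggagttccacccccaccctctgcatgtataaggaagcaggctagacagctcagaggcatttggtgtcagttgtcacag
*Ctsk*, chr3:95498960-95499209, plus strand: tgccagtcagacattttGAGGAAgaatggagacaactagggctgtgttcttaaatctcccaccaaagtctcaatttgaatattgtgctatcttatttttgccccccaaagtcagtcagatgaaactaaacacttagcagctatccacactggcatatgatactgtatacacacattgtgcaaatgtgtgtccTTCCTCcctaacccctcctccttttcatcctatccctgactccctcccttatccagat
*Oscar*, chr7:3616158-3616407, minus strand: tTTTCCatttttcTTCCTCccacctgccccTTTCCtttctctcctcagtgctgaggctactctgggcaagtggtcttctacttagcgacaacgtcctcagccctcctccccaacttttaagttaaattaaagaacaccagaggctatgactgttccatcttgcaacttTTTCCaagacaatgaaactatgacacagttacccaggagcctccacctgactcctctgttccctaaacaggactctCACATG

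In these windows, *Acp5* had the MITF letters 90 bases before the start and the NFAT letters at 117 and 37 bases. *Tcirg1* had the NFAT letters at 193 and 169 bases, and *Ctsk* had only the ETS letters, at 233 and 58 bases. *Oscar* had the MITF letters 6 bases before the start and the NFAT letters at 249, 220 and 82 bases, and it also had the ETS letters at 237 bases. Of the letters searched, *Clcn7*, which rose but is not printed, had only the NFAT letters in 1 window, at 213 bases. Its other window had only the MITF letters, at 41 bases. The windows of *Acp5* not printed had only the NFAT letters, and those of *Tcirg1* lacked them. Among the 12 windows of the list 7 held the NFAT letters, 3 the MITF letters, 3 the ETS letters and 0 the AP-1 letters TGANTCA, against 55.6%, 12.3%, 23.3% and 6.75% of the 32851 windows of all genes. Only these exact letters were searched, so a window without them may hold other letters that the same factors bind. For example, CACGTG was not searched and is present in the *Clcn7* window with the NFAT letters. A match of letters is a description and no binding was measured here.

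*Nfatc1* encodes the calcium-regulated factor that drives the osteoclast program and is also used by other cells, among them cells of heart valves and bone. Its level was 19.2, 17.1 and 18.9 FPKM in the MSC-derived libraries and 89.1, 95.9 and 91.6 FPKM in the endogenous libraries. The groups were far apart and both were tight, with coefficients of variation of 6.13% and 3.71%. *Nfatc1* was lower in the MSC-derived cells (log2FC -2.51, SE 0.08, edgeR adjusted p = 2.43e-07), at 18.4 ± 1.13 against 92.2 ± 3.42 FPKM (SD, n = 3). By FPKM, *Nfatc1* came next after *Ctsk* among the 10 genes in the endogenous cells, and after *Ctsk*, *Acp5* and *Tcirg1* in the MSC-derived cells. This difference ran opposite to those of *Acp5* and *Tcirg1*, and the ratio of *Nfatc1* to *Acp5* in FPKM was 0.145 to 0.170 in the MSC-derived libraries and 2.57 to 6.30 in the endogenous ones. The osteoblast, osteocyte and chondrocyte markers were higher in the same libraries as *Nfatc1*, and their part in its difference was not tested.

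*Oscar* encodes an immunoglobulin-like receptor that binds collagen and signals through the adaptor FcRγ. It had 0, 1 and 0 counts in the MSC-derived libraries and 47, 6 and 5 in the endogenous libraries. The groups did not overlap, but most of the endogenous counts were in replicate 1. Without the filter on low counts *Oscar* was called lower (adjusted p = 0.0186 in edgeR, and 0.00337 in DESeq2). It was also called lower by edgeR when endogenous replicate 1 was left out too (adjusted p = 0.0407), a check added after the data were seen. For other genes adjusted p fell steeply without that library, so this last call is not read as support. The size of such a fold change is not given, since it depends on the prior count.

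*Dcstamp* and *Ocstamp* encode membrane proteins needed for osteoclast precursors to fuse. *Dcstamp* had 1, 7 and 0 counts in the MSC-derived libraries and 0, 14 and 18 in the endogenous ones. *Ocstamp* had 37, 17 and 2 counts in the MSC-derived libraries, a wide spread between replicates, and 0, 12 and 7 in the endogenous ones. For both genes the groups overlapped. *Ocstamp* had a log2FC of 1.43 (SE 1.23, edgeR adjusted p = 0.345), and leaving out a library moved it between 0.52, without MSC-derived replicate 1, and 2.24, without endogenous replicate 2, with no call. With all libraries *Dcstamp* was not called by edgeR without the filter (adjusted p = 0.332) or by DESeq2 (0.383). Without endogenous replicate 1 it passed the filter and was called lower (adjusted p = 0.00757), which it was not without any of the MSC-derived libraries (0.152 to 0.513). *Calcr*, the calcitonin receptor and a late marker of osteoclasts, had 0 counts in 5 of the 6 libraries and 10 in endogenous replicate 3. With all libraries it was not called by edgeR without the filter (adjusted p = 0.172) or by DESeq2 (0.360). It was called lower when endogenous replicate 1 was also left out of the former (0.0250). Every count behind that call came from 1 library, so it cannot show a difference between groups. The highest level of these 4 genes in any library was 1.21 FPKM, for *Oscar*. The genes of the list most particular to osteoclasts were thus low in both groups, although each was above 3 counts in at least 1 library.

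*Acp5* encodes tartrate-resistant acid phosphatase (TRAP), the enzyme stained to find osteoclasts and also made by some macrophages. It was at 120.2, 118 and 111 FPKM in the MSC-derived libraries and at 14.2, 24.8 and 35.6 FPKM in the endogenous ones. The lowest MSC-derived library was above the highest endogenous one, although the endogenous libraries differed among themselves with a coefficient of variation of 43.2%. *Acp5* rose by a log2FC of 2.12 (SE 0.30, edgeR adjusted p = 0.000561), and by 1.78 to 2.47 when any library was left out.

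*Ctsk* encodes cathepsin K, the collagen-cleaving protease of osteoclasts, which fibroblasts and other connective tissue cells also make. It was at 118, 125 and 128 FPKM in the MSC-derived libraries and at 97.8, 121 and 131 FPKM in the endogenous ones. The groups overlapped, and per length *Ctsk* was the highest of the 10 genes in both. Its log2FC was -0.04 (SE 0.12, adjusted p = 0.805 by edgeR). Without endogenous replicate 1, the library with the lowest level, *Ctsk* was called slightly lower in the MSC-derived cells, with a log2FC of -0.20 (adjusted p = 0.00139), and across other settings the value crossed 0. Its mean was higher in the MSC-derived cells in FPKM but lower in TPM. The 2 enzymes therefore stood in different proportion. The ratio of *Ctsk* to *Acp5* in FPKM was 0.982, 1.06 and 1.15 in the MSC-derived libraries and 6.91, 4.89 and 3.67 in the endogenous libraries, with no overlap. In the MSC-derived cells the FPKM levels of these neighbours in rank overlapped, at 124 ± 5.16 for *Ctsk* and 117 ± 4.63 for *Acp5* (SD, n = 3).

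*Tcirg1* encodes the a3 subunit of the vacuolar proton pump, which acidifies lysosomes and the resorption pit. It was at 96.1, 91.1 and 84.8 FPKM in the MSC-derived libraries and at 17.8, 12.2 and 12.4 FPKM in the endogenous ones. It had the largest increase of the 7 genes tested, with a log2FC of 2.57 (SE 0.16, edgeR adjusted p = 5.61e-06). *Atp6v0d2* encodes the d2 subunit of the same pump and is induced in osteoclasts and some macrophages. It was at 5.65, 5.74 and 6.33 FPKM in the MSC-derived libraries and at 1.96, 0.67 and 1.25 FPKM in the endogenous ones, a log2FC of 2.08 (SE 0.37, edgeR adjusted p = 0.00195). *Clcn7*, the lysosomal chloride and proton exchanger, was at 18.1, 17.7 and 17.8 FPKM in the MSC-derived libraries and at 9.19, 8.14 and 9.12 FPKM in the endogenous ones. Its log2FC was 0.90 (SE 0.09, adjusted p = 8.28e-05), the smallest of the called genes. For each of these genes the groups did not overlap and the call held without any of the 6 libraries, as it did for *Acp5* and *Nfatc1*. The ratio of *Tcirg1* to *Clcn7* in FPKM was 4.77 to 5.31 in the MSC-derived libraries and 1.35 to 1.93 in the endogenous ones.

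The 4 rising genes changed less than the macrophage markers in the same libraries. Relative to the mean log2 level of the 12 markers, *Acp5* differed by -5.12, *Atp6v0d2* by -5.17, *Tcirg1* by -4.74 and *Clcn7* by -6.43 on the log2 scale, MSC-derived minus endogenous (n = 3 against 3, two-sided exact permutation p = 0.1 for each, the smallest this design allows). This holds for nearly every gene, since 99.3% of all genes tested were lower relative to these markers with no overlap, and nothing particular to the list can be read from it.

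The signals that start osteoclast formation were divided between the groups. Of the 6 ligand and receptor genes, 2 were higher in the MSC-derived cells and 4 in the endogenous cells, and none overlapped (38.2% of all genes tested were higher and 34.1% lower without overlap). *Tnfsf11*, which encodes RANKL, had 4, 8 and 14 counts in the MSC-derived libraries and 1142, 671 and 780 in the endogenous ones. Its log2FC was -6.69 (SE 0.43, edgeR adjusted p = 7.33e-06). Its receptor RANK, encoded by *Tnfrsf11a*, went the other way, with 302, 278 and 288 counts in the MSC-derived libraries and 1, 4 and 2 in the endogenous ones (adjusted p = 5.54e-06). Ligand and receptor thus each lay near the floor in the group where the other was found.

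*Tnfrsf11b* encodes osteoprotegerin, the decoy that binds RANKL. It was at 13.4, 12.8 and 12.9 FPKM in the MSC-derived libraries and at 312, 246 and 258 FPKM in the endogenous ones, a log2FC of -4.50 (SE 0.11, edgeR adjusted p = 1.00e-07). The decoy was well above the ligand in every library, with a ratio of *Tnfrsf11b* to *Tnfsf11* in FPKM of 13.2 to 17.9 in the endogenous libraries and, over few *Tnfsf11* counts, 41.7 to 168 in the MSC-derived ones. *Csf1r*, the receptor shared by CSF1 and IL-34 and a gene of the whole macrophage lineage, was at 204, 199 and 201 FPKM in the MSC-derived libraries and at 3.52, 2.67 and 3.24 FPKM in the endogenous ones, a log2FC of 5.88 (SE 0.12, edgeR adjusted p = 5.66e-08). Its ligands were lower in the MSC-derived cells, *Csf1* at 9.87, 7.85 and 9.36 against 89.0, 89.8 and 91.4 FPKM (log2FC -3.49, SE 0.11) and *Il34* at 2.64, 1.68 and 2.65 against 21.3, 43.0 and 37.2 FPKM (log2FC -3.95, SE 0.32). Thus RNA for the ligands was highest in the libraries with osteoblast and chondrocyte markers, and RNA for the receptors in those with macrophage markers. The part of these markers in the differences was not tested.

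**Figure D2:**
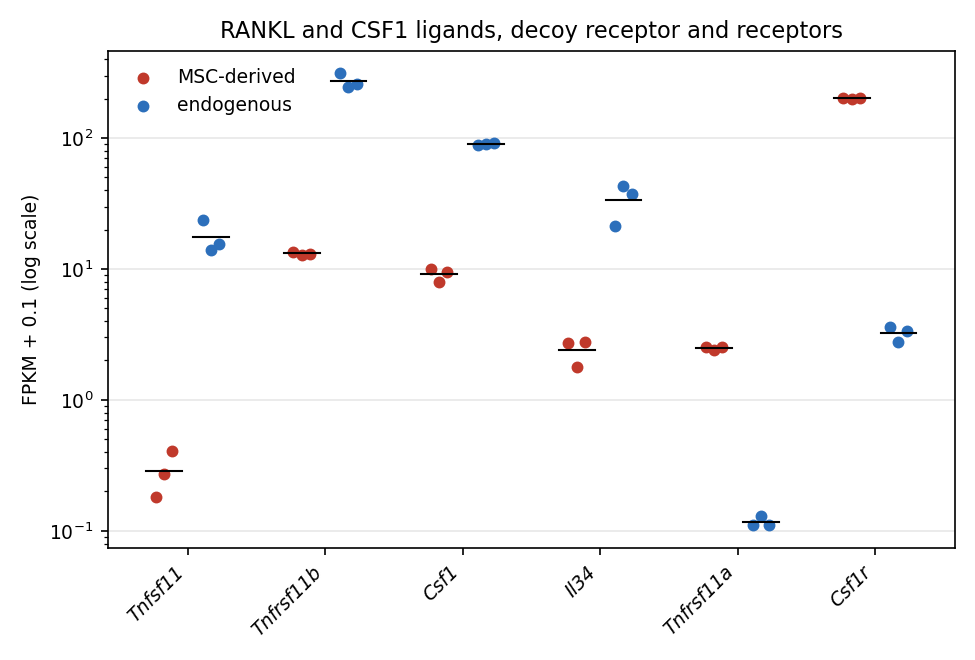
FPKM plus 0.1, on a log scale, of the ligands *Tnfsf11*, *Csf1* and *Il34*, the decoy *Tnfrsf11b*, and the receptors *Tnfrsf11a* and *Csf1r*, with 1 point per library and a bar at the mean. Ligands and decoy are higher in every endogenous library, and both receptors are higher in every MSC-derived library.

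The adaptors and kinases through which receptors such as OSCAR signal rose together. In the MSC-derived cells all 8 tested genes of this list were higher, against 31.3% of all genes tested. Their median log2FC was 4.59, against 0.05 over all genes tested. *Siglec15*, a receptor of osteoclasts, had at most 9 counts in any library and was not tested. *Fcer1g*, the FcRγ partner of OSCAR, was at 3962 ± 88.5 against 84.9 ± 30.4 FPKM, and *Tyrobp*, which encodes DAP12, at 4338 ± 168 against 129 ± 36.9 FPKM (SD, n = 3). Both adaptors were thus abundant in libraries with almost no *Oscar*. *Trem2*, a DAP12-coupled receptor of macrophages and osteoclasts, was counted 3919, 3743 and 3403 times in the MSC-derived libraries and 3, 3 and 30 times in the endogenous ones. The kinase genes *Syk* and *Btk* had log2FC values of 4.77 and 4.41 (SE 0.33 and 0.31, adjusted p = 1.19e-05 and 1.22e-05 by edgeR). These genes are common to myeloid cells and rose with the macrophage markers, and the part of those cells was not tested.

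Of the 10 transcription factors that promote osteoclasts, 6 were higher, 2 lower and 2 not called (31.3% of all genes tested were higher and 30.3% lower). *Spi1*, which encodes PU.1, the factor of the myeloid lineage, was at 289 ± 11.6 against 16.7 ± 2.66 FPKM, with a log2FC of 3.99 (SE 0.13, edgeR adjusted p = 2.93e-07). *Jdp2*, an AP-1 family member, was higher with a log2FC of 1.46. *Mitf*, the partner of PU.1 at osteoclast genes, rose with a log2FC of 1.44 and *Prdm1*, a repressor of anti-osteoclastic genes, with 2.85. *Ppargc1b*, a regulator of mitochondria, had a log2FC of 3.04 (adjusted p = 0.0245), but its call was lost on leaving out each MSC-derived library or endogenous replicate 3 (adjusted p 0.0647 to 0.0817) and in DESeq2 (0.0848). *Relb* was called higher with an adjusted p of 0.0489, and the call was lost without MSC-derived replicates 1 or 3 or endogenous replicates 2 or 3 (0.0949 to 0.173), in DESeq2 (0.0605), with RLE or upper-quartile scaling (0.0727 and 0.157), without the filter (0.0533) and in limma on log2(FPKM + 0.1) (0.0679). *Fos*, an AP-1 subunit upstream of *Nfatc1*, was lower, at 838 ± 12.1 against 2042 ± 97.7 FPKM (SD, n = 3). The genes not called were *Nfkb1* and, with an adjusted p of 0.0515, *Nfkb2*. *Nfkb1* was called lower without endogenous replicate 1 (adjusted p = 8.34e-07). *Nfkb2* was called higher without that library (0.0250), with library totals only (0.00766) and in both limma settings (0.0085 and 0.0164). Both limma settings used FPKM, whose scale differs between the groups. In TPM the means ran the other way, at 35.23 against 40.81 for *Relb* and 48.35 against 54.33 for *Nfkb2* (MSC-derived against endogenous). Of the factors that restrain osteoclasts, *Irf8*, which keeps myeloid cells on the macrophage path, was higher with a log2FC of 4.66, and *Bcl6*, a transcriptional repressor, was lower with -0.53.

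**Figure D3:**
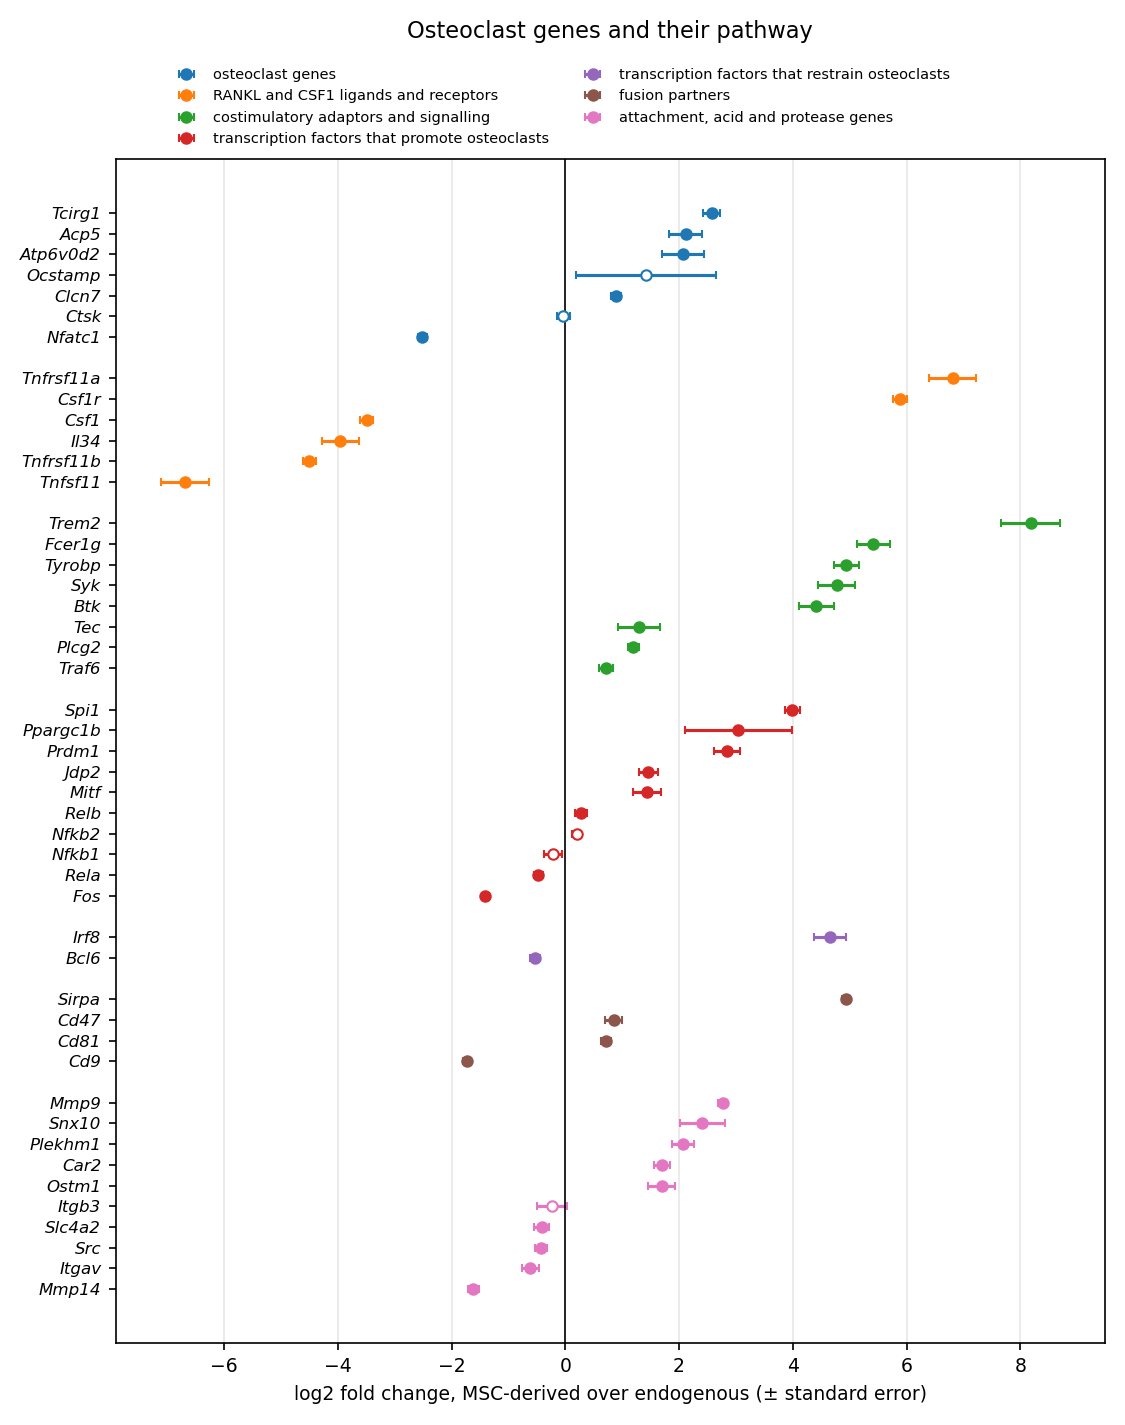
Log2FC of MSC-derived over endogenous cells with its standard error from edgeR, for the 7 tested osteoclast genes and the tested genes of 6 pathway lists. Filled points are called at an adjusted p of 0.05 or less, and open points are not. The 2 receptors and all 8 adaptor and signalling genes lie to the right of 0, and the ligands and *Nfatc1* to the left.

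Of the 4 partners of cell fusion, *Sirpa*, *Cd47* and *Cd81* were higher and *Cd9* lower, against 31.3% higher and 30.3% lower among all genes tested. *Sirpa*, a receptor of myeloid cells that binds CD47, had a log2FC of 4.94 (SE 0.08, edgeR adjusted p = 2.61e-08). *Cd47* and *Cd81* are made by most cells and had log2FC values of 0.85 and 0.72. *Cd9*, a tetraspanin, was at 404 ± 7.48 against 1232 ± 84.1 FPKM (SD, n = 3). Among the 10 genes of attachment, acid and proteolysis 5 were higher, 4 lower and 1 not called, beside the same shares of all genes tested. The last, the integrin gene *Itgb3*, was not called with all libraries (adjusted p = 0.478) but was called lower without endogenous replicate 1 (0.00118). The higher genes were *Mmp9*, *Snx10*, *Plekhm1*, *Car2* and *Ostm1*. *Snx10*, a sorting nexin whose loss causes osteopetrosis, had a log2FC of 2.41 and *Plekhm1*, a lysosomal trafficking adaptor, one of 2.07. *Mmp9*, a gelatinase of osteoclasts and neutrophils, was at 166 ± 4.80 against 22.3 ± 1.54 FPKM (SD, n = 3), and all 8 neutrophil markers were higher in the same libraries. *Car2*, the carbonic anhydrase that supplies protons and is also abundant in red blood cells, had a log2FC of 1.70 (SE 0.15, edgeR adjusted p = 3.75e-05), and all 6 erythroid markers were higher too. *Ostm1*, the partner of CLC-7, had a log2FC of 1.69, against 0.90 for *Clcn7* itself. *Mmp14*, the membrane collagenase of stromal cells and osteoclasts, was lower with a log2FC of -1.62. *Slc4a2*, the bicarbonate exchanger, was lower with an adjusted p of 0.0295, and lost that call (0.0714 to 0.109) on leaving out each MSC-derived library, endogenous replicate 2 or endogenous replicate 3, with library totals only (0.0831) and in both limma settings (0.130 and 0.161).

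Relatives of the osteoclast genes, from the same family or enzyme class, were set beside them. Of 16 such genes, 8 were higher, 3 lower and 5 not called, against 31.3% higher and 30.3% lower among all genes tested. The widely expressed pump subunit *Atp6v0d1* was far above *Atp6v0d2* in both groups, at 211 ± 5.88 and 73.6 ± 5.66 FPKM, and the ratio of d1 to d2 was 32.7 to 38.6 in the MSC-derived libraries and 34.5 to 111 in the endogenous ones. *Tcirg1* was 1.58 to 1.75 times *Atp6v0a1* in the MSC-derived libraries and 0.876 to 1.502 times in the endogenous ones, and both genes rose. *Atp6v0a2* was not called and *Atp6v0a4*, the form of kidney, was lower with a log2FC of -4.05. Of the 4 NFAT genes listed, *Nfatc1* had the highest FPKM in both groups. *Nfatc2* and *Nfatc4* fell with it, by 3.26 and 1.90 on the log2 scale, and *Nfatc3* was not called.

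*Ctsk* was far below *Ctsb* in every library, and more so in the MSC-derived cells. *Ctsb* was 42.7 to 46.9 times *Ctsk* in FPKM there and 3.55 to 3.86 times in the endogenous cells. *Ctss*, a cathepsin of antigen-presenting cells, was 7.25 to 7.997 times *Ctsk* in the MSC-derived libraries and 0.0584 to 0.104 times in the endogenous ones, with a log2FC of 6.64 (SE 0.13, edgeR adjusted p = 5.87e-08). *Ctsl*, like *Ctsk*, was not called with all libraries (adjusted p = 0.148), and was called lower without endogenous replicate 1 (0.000129). *Acp2*, the lysosomal acid phosphatase, rose by a log2FC of 2.22, against 2.12 for *Acp5*. Of the chloride transporters, *Clcn4* and *Clcn6* were not called, but without endogenous replicate 1 *Clcn4* was called lower and *Clcn6* higher (adjusted p = 1.17e-06 and 0.000159).

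**Figure D4:**
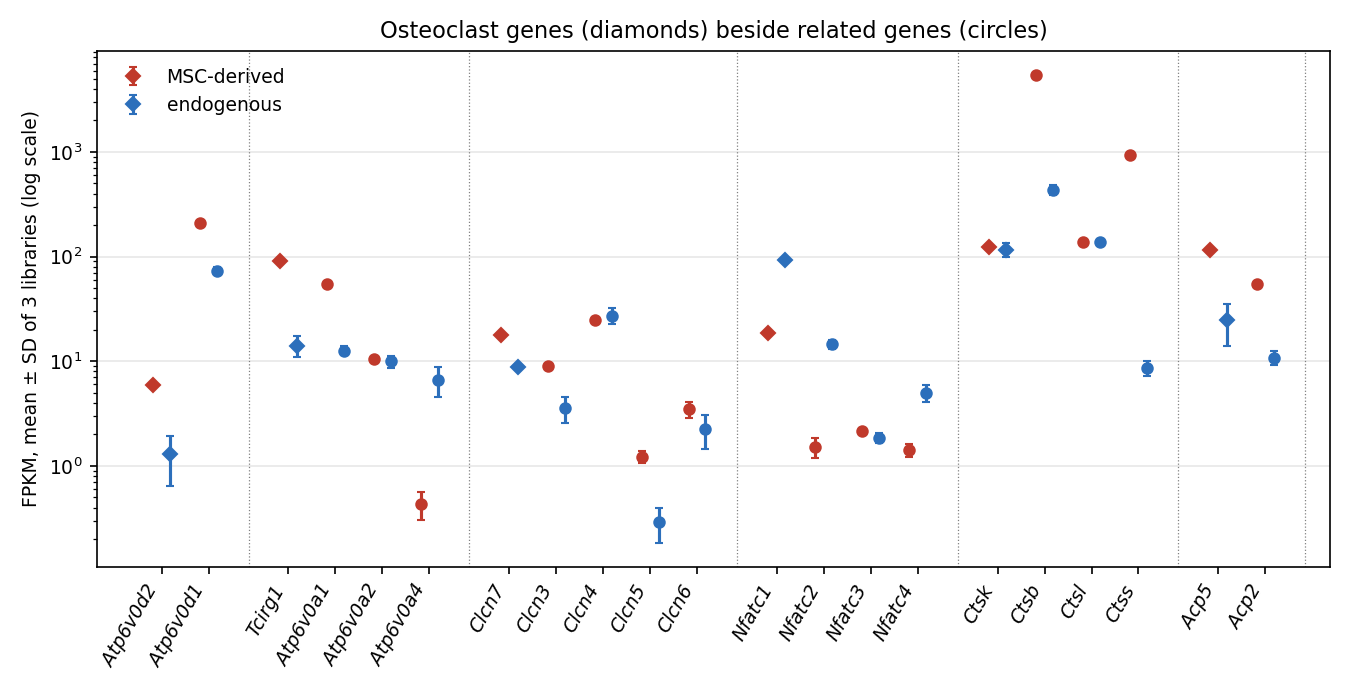
Mean FPKM with SD over 3 libraries, on a log scale, of osteoclast genes (diamonds) and genes of the same family or enzyme class (circles) in both groups. *Atp6v0d1*, *Ctsb* and, in the MSC-derived cells, *Ctss* lie above *Atp6v0d2* and *Ctsk*, and *Nfatc1* is the highest NFAT gene in both groups.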

How the data were processed

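Gene expression of sorted Tomato+ cells was measured by bulk RNA sequencing in 3 MSC-derived and 3 endogenous libraries. SOAPnuke was used by the authors to clean the reads, HISAT2 and Bowtie2 to align them and RSEM to quantify genes. The submitters' processing notes name Bowtie2 2.2.5 and RSEM 1.2.12 and an older mouse build than that of the promoter windows, so the only coordinates given are those of the RefSeq windows, in their own build. The authors deposited expected counts without normalization, FPKM, TPM scaled to 1000000 per library, and a normalized signal per gene, used only to check the counts. FPKM summed to 808701 to 813572 in the MSC-derived and 504768 to 573603 in the endogenous libraries. The scale of FPKM thus differs between groups, and FPKM gives larger ratios of MSC-derived to endogenous levels than TPM does. *Clcn7* was at 17.9 against 8.82 in FPKM and 22.0 against 16.1 in TPM, and *Acp5* at 117 against 24.9 in FPKM and 144 against 44.5 in TPM. The log2FC of edgeR rests on counts and not on FPKM. No source used here states that the kit or the counting kept strand. The 8 columns of group averages were not used.

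Expected counts were rounded, which changed 20.6% of values, and filterByExpr, TMM, glmQLFit and glmQLFTest of edgeR 4.0.16 (R 4.3.3) were run with Benjamini-Hochberg adjustment over 14289 genes and a threshold of 0.05. The standard error is the log2 fold change divided by the square root of F. Values relative to macrophage markers used log2(CPM + 0.1). The main fit was also run on simulated counts. These had the same dispersion in both groups, so they cannot show how the fit handles groups of unequal spread. Plots used matplotlib 3.10.9. Between replicates, chi-square per gene was 58.7 and 55.4 for endogenous replicate 1 against the others. It was 3.88 to 5.43 for the other pairs, where counting noise gives about 1. Each library counted as 1 replicate. The paper gives 3 mice per group, but the sample titles do not tie a library to a mouse. The spread between libraries may therefore not be that between mice. The coefficient of variation between libraries, from a common dispersion, was 6.77% in the MSC-derived and 35.3% in the endogenous group. The test fitted both groups with 1 dispersion per gene, so p-values measure a spread pooled over unequal groups of these libraries.

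The genes and lists were chosen with earlier results of these data known. By rule, the text names the 10 osteoclast genes, every ligand and receptor gene, and up to 30 called pathway genes, ordered by absolute log2FC, that had a group mean of at least 10 FPKM or an absolute log2FC of 2 or more. Pathway genes outside this rule, such as *Fos*, *Mitf*, *Relb*, *Bcl6*, *Cd47*, *Slc4a2* and those not called, were chosen after their values were seen. A gene was left out of the pathway lists and their counts and is not reported here, and other list genes not named in the text are included in the counts. Of the B and T cell markers, 7 of 8 were higher in the MSC-derived libraries. Alternatives were DESeq2 1.42.0, 3 other scalings, no filter, limma 3.58.1 with log2(FPKM + 0.1) or log2(FPKM + 1), a replicate block, each library left out, and a threshold of 0.001. A fit without both the filter and endogenous replicate 1 was added after seeing the data.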

Additional observations from a re-analysis of the deposited data

How the results depend on the processing

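The 4 osteoclast genes called higher numbered 3 to 4 in every alternative, and *Atp6v0d2* missed the threshold of 0.001 (adjusted p = 0.00195). The count called lower, 1 with all libraries, was 2 in DESeq2 and 2 without the filter on low counts, where *Oscar* was added, and ran from 1 to 3 when each library was left out, with *Ctsk* and *Dcstamp* added without endogenous replicate 1. Without both the filter and that library, *Calcr*, *Dcstamp* and *Oscar* were all called lower (adjusted p = 0.0250, 0.0159 and 0.0407), *Calcr* on the counts of 1 library. The log2 fold change of *Ctsk* changed sign to 0.0816 with library totals only, 0.0944 in limma on log2(FPKM + 1) and 0.0952 on log2(FPKM + 0.1), and ran from -0.205 to 0.0530 over the fits without a library. That of *Atp6v0a2* became 0.0749, 0.0762 and 0.0835 in these settings and ran from -0.124 to 0.00504. Library totals moved the median of all genes to 0.16. The mean of 6 of the 10 genes was higher in the MSC-derived cells in FPKM and of 5 in TPM, since that of *Ctsk* turned. With the replicate number as a block 4 osteoclast genes were higher and 1 lower, and 32 and 14 pathway genes against 33 and 15 without it, with the calls of *Relb* and *Slc4a2* among those lost (adjusted p = 0.0998 and 0.0599). Same-numbered libraries came from different mice, and their deviations did not correlate (-0.0045, -0.0139 and 0.0159), so the block is not read as a pairing. Calls of genes with a few counts per library, such as *Dcstamp* and *Calcr*, rest on the choice of libraries and filter.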
